A study of Rattus norvegicus with 21 samples.

Results

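The S100 calcium-binding proteins were described here through 9 genes, S100a6, S100a4, S100a11, S100a10, S100b, S100a1, S100a13, S100a8 and S100a9, out of 14217 genes read on Affymetrix rat expression arrays. A gene entered with every probe set that carried its symbol alone, and its lead probe set was the one with the highest mean over all 21 arrays. Each of the 9 genes had 1 such probe set, so that no choice between probe sets was made. Lead probe sets were chosen by those means alone, which ran from 4.44 for S100a8 to 13.81 for S100b. The samples were astrocytes from the forebrain of Sprague Dawley rats, in 7 groups of 3 biological replicates. Withdrawn P7 cultures were cells panned with ITGB5 from postnatal day 7 rats, kept 7 days in 10% foetal calf serum, then washed and moved to HBEGF medium for 7 more days. Serum P7 cultures were panned P7 cells after 7 days in 10% serum. MD cultures came from P1 forebrain by the McCarthy and de Vellis method, without panning, and were harvested after 7 days in 10% serum. HBEGF P7 and HBEGF P1 cultures were panned cells fed for 7 days with HBEGF, a growth factor that acts on the EGF receptor, at 5 ng/ml and without serum. Fresh P7 and fresh P1 cells were panned and lysed at once. A characteristics label of the HBEGF P7 cultures reads p1, while the title and source name say P7, which was followed.

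S100 proteins are small EF-hand proteins of vertebrates that mostly act as dimers. Calcium binding opens a hydrophobic face with which they grip target proteins such as annexins, myosin and the receptor RAGE. S100B is a standard marker of astrocytes in the brain. S100A6, S100A4, S100A10 and S100A11 are known from motile and dividing cells and from reactive glia, and S100A8 with S100A9 forms calprotectin, the abundant calcium-binding complex of neutrophils.

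Values were log2 intensities of the authors' RMA table, and the median over probe sets was 7.18. The labelled cell type was checked with 12 astrocyte markers, 11 of them measured. Their mean per array ran from 11.07 to 11.37 in MD cultures, the lowest group, against 13.08 to 13.18 in fresh P7 and 12.32 to 12.57 in fresh P1 cells. Gfap and Gja1 had group means of at least 12.50 and 13.85 in all 7 groups. Aldh1l1, Slc1a2, Slc1a3, Fgfr3 and Glul had lower means in every culture group than in fresh cells of the same age. Aqp4, Aldoc, Gjb6 and Ndrg2 had lower means in some culture groups and higher means in others. The Gjb6 mean was higher than in fresh cells of the same age in withdrawn P7 and HBEGF P1 cultures, and lower in the other cultures. By the calls defined below, 6 of the 11 fell and 0 rose in MD against fresh P1 cells, where 9.43% of all genes fell. Against fresh P7 cells 3 fell in serum P7 and 4 in HBEGF P7 cultures, and 0 rose, beside 9.04% and 5.51% of all genes lower. HBEGF P1 against fresh P1 cells had 2 lower and 1 higher, beside 4.49% and 4.38% of all genes. Aldh1l1 averaged 8.65 in MD cultures against 12.50 in fresh P1 cells, and Gjb6 4.39 against 6.45. Slc1a2 means ran from 6.14 to 7.38 in the cultures, against 10.37 in fresh P7 and 8.25 in fresh P1 cells. The mean of 14 fibroblast and meningeal markers ran from 11.84 to 12.25 in withdrawn P7, 10.93 to 12.49 in serum P7 and 7.55 to 7.86 in MD cultures. It ran from 8.72 to 11.02 in HBEGF P7 and 9.14 to 9.41 in HBEGF P1 cultures, against 8.74 to 9.58 in fresh P7 and 8.07 to 9.18 in fresh P1 cells. HBEGF P7 replicate 2 had the lowest of these values in its group, 8.72, and replicate 3 stood apart by its ependymal markers, at a mean of 10.44 against 8.17 and 7.38 in the other arrays of the group. Fewer cells of a type and less RNA per cell cannot be told apart in these bulk samples.

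S100a6, S100a4, S100a11 and S100a10, called the S100a6 set here, had their highest means in MD cultures and, for 3 of the 4, their lowest in both groups of fresh cells. For S100a4 the HBEGF P1 mean lay between those of fresh P7 and fresh P1 cells. S100a6, or calcyclin, was discovered as a gene of proliferating cells and its protein binds annexins and the calcyclin-binding protein. Its log2 intensities were 13.47, 13.92 and 13.87 in withdrawn P7, 14.0032, 14.17 and 13.65 in serum P7 and 13.99, 13.97 and 13.97 in MD cultures. They were 12.81, 11.91 and 12.02 in HBEGF P7 and 8.87, 8.35 and 8.56 in HBEGF P1 cultures, against 8.18, 7.14 and 7.45 in fresh P7 and 7.38, 7.42 and 6.91 in fresh P1 cells. All 9 arrays of cells that had seen serum lay above the HBEGF P7 arrays, which lay above the HBEGF P1 arrays, which lay above both sets of fresh cells. Serum P7 cultures overlapped both withdrawn P7 and MD cultures, the MD arrays lay just above the withdrawn arrays, and fresh P7 overlapped fresh P1 cells.

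S100a4 encodes a partner of non-muscle myosin that is also used as a fibroblast marker. It was at 11.06, 11.24 and 10.80 in withdrawn P7, 12.89, 12.91 and 11.63 in serum P7 and 13.77, 13.68 and 13.64 in MD cultures. In HBEGF P7 cultures it was at 11.21, 9.67 and 11.69, in HBEGF P1 cultures at 10.02, 8.27 and 10.07, in fresh P7 cells at 10.96, 8.98 and 9.26, and in fresh P1 cells at 7.63, 7.84 and 8.09. MD cultures were the highest group with the smallest spread, whereas replicate 2 of both HBEGF groups was the low array and fresh P7 replicate 1 the high array of its group. The withdrawn P7, HBEGF P7 and fresh P7 ranges overlapped.

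S100a11 encodes a protein that binds annexin A1. It was at 13.72, 13.79 and 14.02 in withdrawn P7, 14.01, 14.05 and 14.10 in serum P7 and 14.49, 14.35 and 14.39 in MD cultures. The values were 12.80, 10.82 and 13.12 in HBEGF P7 and 10.99, 9.91 and 11.42 in HBEGF P1 cultures, against 9.39, 8.61 and 8.49 in fresh P7 and 8.35, 9.14 and 9.22 in fresh P1 cells. All cultured arrays exceeded all fresh arrays, and replicate 2 was again the low array of both HBEGF groups. The reference assembly holds 2 further coding genes and 5 pseudogenes named after S100a11, with 1 pseudogene named after S100a10, and probes may not separate such copies.

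S100a10, the member that does not bind calcium and forms a tetramer with annexin A2, was highest in MD cultures. It was at 13.49, 13.71 and 14.04 in withdrawn P7, 13.82, 13.93 and 14.05 in serum P7 and 14.78, 14.79 and 14.67 in MD cultures. In HBEGF P7 cultures it was at 13.35, 12.67 and 13.21 and in HBEGF P1 cultures at 13.09, 11.28 and 12.41, against 11.28, 10.99 and 11.01 in fresh P7 and 11.03, 11.28 and 11.24 in fresh P1 cells. The MD arrays lay above all others. The HBEGF P1 arrays spread more widely than the HBEGF P7 arrays, with replicate 2 at the fresh level.

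S100b, the astrocyte S100, had a different course, with its lowest means, fresh P1 and MD, at both ends of the S100a6 order. Its values were 14.72, 14.74 and 14.12 in withdrawn P7, 13.55, 13.58 and 12.91 in serum P7 and 13.36, 13.40 and 13.19 in MD cultures. They were 14.61, 14.45 and 14.47 in HBEGF P7 and 14.15, 14.15 and 14.32 in HBEGF P1 cultures, against 13.65, 13.65 and 13.65 in fresh P7 and 12.71, 13.39 and 13.32 in fresh P1 cells. Both HBEGF groups lay above all fresh, serum P7 and MD arrays, and the withdrawn arrays overlapped those of the HBEGF groups. MD and fresh P1 arrays overlapped.

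S100a1, known in muscle as a regulator of the ryanodine receptor, had its highest levels in the same 3 groups as S100b. It was at 12.14, 12.48 and 11.68 in withdrawn P7, 10.59, 10.48 and 10.32 in serum P7 and 11.21, 10.50 and 10.73 in MD cultures, and at 12.54, 10.88 and 11.9983 in HBEGF P7 and 11.95, 11.43 and 11.94 in HBEGF P1 cultures. Fresh P7 cells had 10.92, 10.34 and 10.64 and fresh P1 cells 10.82, 10.55 and 10.92. The HBEGF P1 and withdrawn arrays exceeded all fresh arrays, while HBEGF P7 replicate 2 fell inside the fresh range. S100a13, whose protein takes part in the non-classical release of FGF1 and interleukin 1 alpha, had group means of 12.49 in withdrawn P7, 12.03 in serum P7, 11.78 in MD, 12.83 in HBEGF P7 and 12.32 in HBEGF P1 cultures, against 12.37 in fresh P7 and 11.99 in fresh P1 cells. Most of these groups overlapped, and S100a13 was called in none of the 12 comparisons below.

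S100a8 and S100a9 were the members under the 25th percentile of probe set means, 5.36. S100a8 ranged from 4.19 to 5.36 and S100a9 from 4.57 to 5.08 over all 21 arrays. The highest S100a8 value was in withdrawn P7 replicate 3, which also had the highest microglia and macrophage marker mean of all arrays, 8.51. Of 10 neutrophil markers 5 were measured, and 3 of these (Mmp8, Cxcr2 and Fcnb) were below 5.36 on every array. Camp had group means of 5.20 to 5.78. Csf3r had group means of 4.35 to 4.96, the highest in withdrawn P7 cultures, and reached 5.45 on its highest array.

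**Figure D1:**
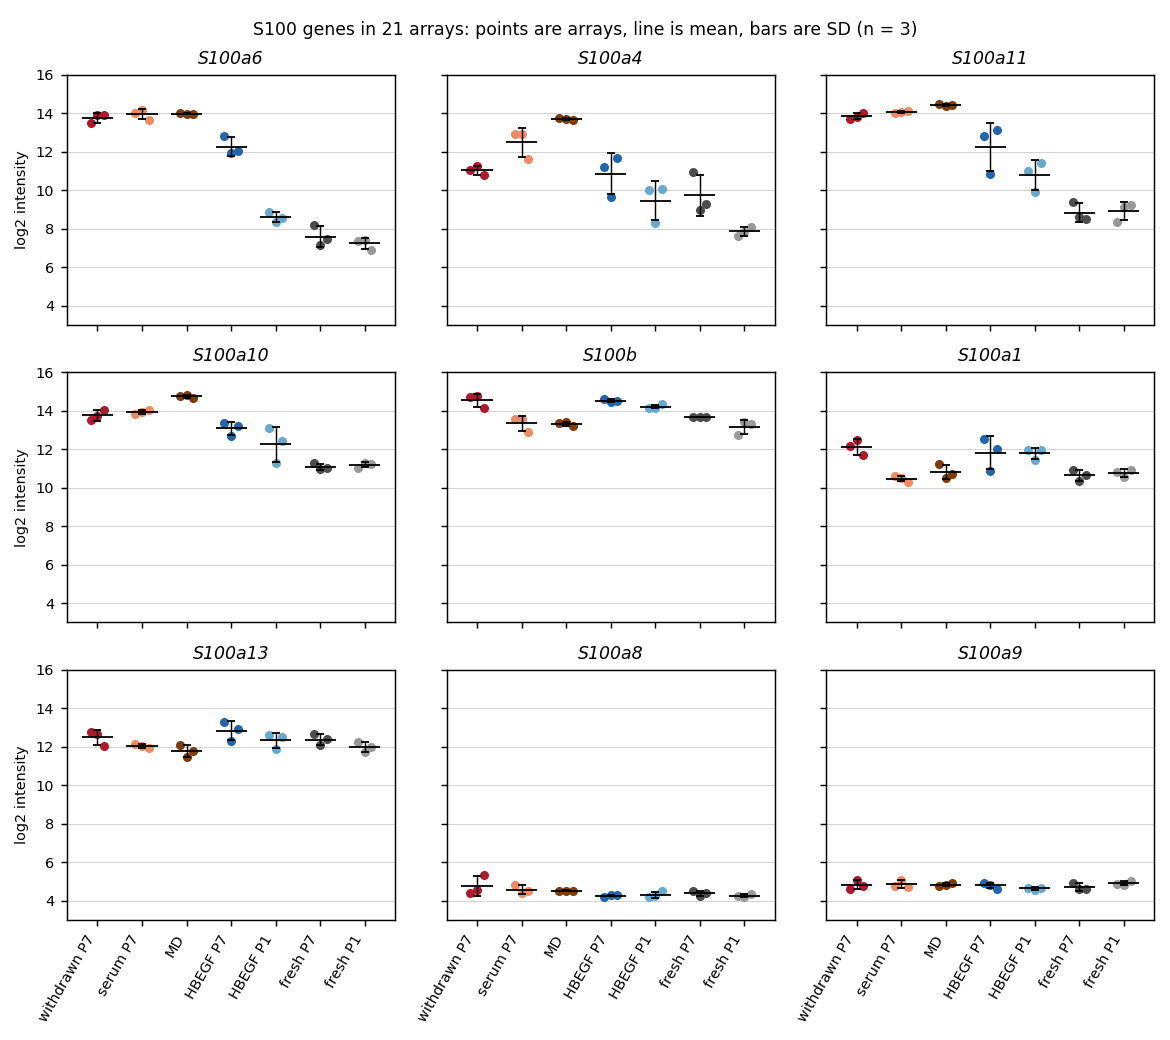
Log2 intensity (vertical axes) of the 9 S100 genes in 7 groups (horizontal axes); points are arrays, lines means and bars SD over 3 arrays. S100a6, S100a11 and S100a10 are highest in withdrawn P7, serum P7 and MD cultures, S100b and S100a1 are highest in withdrawn P7 and HBEGF cultures, and S100a8 and S100a9 stay under 5.4.

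Over the 21 arrays, which include 3 of each group, the pairwise Pearson correlations of S100a6, S100a4, S100a11 and S100a10 ran from 0.85 to 0.97, and those of S100b, S100a1 and S100a13 from 0.67 to 0.81. Between the S100a6 set and these 3 genes, called the S100b set, they ran from −0.08 to 0.23. The sets were formed after their values were seen, and the correlations are descriptions. With group means removed, correlations ran from 0.41 to 0.81 in the S100a6 set, 0.20 to 0.90 in the S100b set and −0.05 to 0.71 between them, so that deviations of single arrays were partly shared across the sets.

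Some members lie side by side in the genome. By the RefSeq annotation of GRCr8, 8 of the 9 genes lie on chromosome 2 and S100b lies on chromosome 20. S100a1 and S100a13 are adjacent coding genes, S100a4 and S100a6 are separated by S100a5 alone, S100a8 and S100a9 are adjacent, and S100a11 and S100a10 are adjacent after a gap of 55 other coding genes since the last S100 gene. S100a5, known from olfactory neurons, had group means of 5.00 to 5.60 and was called in no comparison. S100a5 was also highest in MD cultures, at 0.59 over fresh P1 cells (adjusted p = 0.00266), under the fold limit of 1 used for calls below. Its mean over the 21 arrays, 5.20, lay under the 25th percentile of probe set means, 5.36.

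Promoter sequence is shown for 3 genes of the S100a6 set, S100a6, S100a4 and S100a11, and for S100b, which did not follow them. Each is the 250 bases before the start in the RefSeq promoter table (GRCr8), 5′ to 3′, for S100a6 at chr2:178398287-178398536, plus strand, for S100a4 at chr2:178388279-178388528, plus strand, for S100a11 at chr2:181874882-181875131, plus strand, and for S100b at chr20:12381082-12381331, minus strand. Capitals mark matches to any of 5 motifs, searched on both strands: the TATA motif TATAAA, the Sp1-type GC box GGGCGG, the AP-1 motif TGANTCA, the TEAD motif GGAATG and the CArG box of serum response factor. The annotated gene spans of S100a6 and S100b reach upstream of the starts used here.
S100a6: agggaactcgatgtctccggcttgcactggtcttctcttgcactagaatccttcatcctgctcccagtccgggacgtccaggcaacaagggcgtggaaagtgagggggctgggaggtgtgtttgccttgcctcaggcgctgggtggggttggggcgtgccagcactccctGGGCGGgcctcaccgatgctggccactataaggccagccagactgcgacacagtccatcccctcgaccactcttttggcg
S100a4: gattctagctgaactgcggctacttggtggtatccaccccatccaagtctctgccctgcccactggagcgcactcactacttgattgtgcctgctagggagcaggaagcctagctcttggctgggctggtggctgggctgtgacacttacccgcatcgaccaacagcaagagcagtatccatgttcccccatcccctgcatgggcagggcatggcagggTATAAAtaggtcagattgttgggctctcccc
S100a11: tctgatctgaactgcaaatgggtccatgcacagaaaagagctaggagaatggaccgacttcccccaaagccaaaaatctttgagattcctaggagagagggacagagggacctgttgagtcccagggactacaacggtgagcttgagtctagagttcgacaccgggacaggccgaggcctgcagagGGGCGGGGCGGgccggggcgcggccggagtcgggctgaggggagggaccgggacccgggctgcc
S100b: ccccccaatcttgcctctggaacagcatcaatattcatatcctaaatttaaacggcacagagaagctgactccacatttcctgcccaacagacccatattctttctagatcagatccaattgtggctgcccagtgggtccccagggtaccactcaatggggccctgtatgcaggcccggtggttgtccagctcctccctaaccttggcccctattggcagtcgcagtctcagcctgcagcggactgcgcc
S100a6 had 1 GC box, at −80 to −75 from the start, and S100a11 had 2 overlapping ones between −64 and −54. S100a4 had a TATAAA at −31 to −26, and S100b had a match to none of the 5. Of 33469 windows of this length, 30.5% held GGGCGG, 12.9% TATAAA, 6.34% TGANTCA, 12.1% GGAATG and 1.497% a CArG box. Among the 6 members listed in the table, S100a13 also held GGGCGG and S100a9 TATAAA, and none held the other 3 motifs. A match is a description of letters and not a site.

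Groups were then compared by limma in 1 fit of all 7 group means. A gene was called where its p, adjusted by Benjamini-Hochberg over all 31042 probe sets, was under 0.05 and its absolute log2 change was at least 1, and every adjusted p below is of this fit unless another is named. The members were selected on earlier results of these same arrays, so their calls are read beside the share of all genes called.

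Between the ages, fresh P7 against fresh P1 cells, no member was called by limma, while 1.55% of all genes were called, 1.37% higher and 0.183% lower. At unadjusted p under 0.05 there were 2 members, S100a4 (1.88, adjusted p = 0.0819) and S100b (0.51, adjusted p = 0.177). The S100a4 arrays did not overlap between the ages. Fresh P7 replicate 1, the array with the highest S100a4, also had the highest fibroblast and meningeal marker mean of its group, 9.58 against 9.23 and 8.74. Its microglia and macrophage marker mean was likewise the highest of the group, 7.48 against 6.70 and 6.99. Between the ages 0 of 14 fibroblast and meningeal markers were called, while 2 of 12 microglia and macrophage markers rose and 0 fell. The part of either list in the S100a4 value was not tested.

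HBEGF culture raised S100a6, S100a11, S100a10 and S100a1 in cells of both ages, and S100b past the fold limit in P1 cells. In P1 cells 5 of 9 members rose and 0 fell, while 8.87% of all genes were called, 4.38% higher and 4.49% lower. S100a11 changed by 1.87 ± 0.46 (SE, adjusted p = 0.00793), S100a6 by 1.36 ± 0.26 (SE, adjusted p = 0.00123), S100a10 by 1.08 ± 0.30 (SE, adjusted p = 0.0168), S100b by 1.07 ± 0.20 (SE, adjusted p = 0.000856) and S100a1 by 1.01 ± 0.32 (SE, adjusted p = 0.0335). S100a4 was at 1.60, adjusted p = 0.0549, and with the replicate number as a block it was called (adjusted p = 0.0392). These P1 calls were not all firm. S100a1 was lost without HBEGF P1 replicate 1 or 3 or any 1 fresh P1 array (adjusted p = 0.0551 to 0.112), and S100a10 without HBEGF P1 replicate 1 or 3 or without replicate 1 of fresh P1 (adjusted p = 0.0597 to 0.1). S100b went under the fold limit without fresh P1 replicate 1 (0.86), and S100a4 was called without HBEGF P1 replicate 2 (2.19, adjusted p = 0.0129). The count of rises was 2 without fresh P1 replicate 1 and 3 without HBEGF P1 replicate 1 or 3. Fitted on the 2 groups alone, S100a10 was not called (adjusted p = 0.122). Of 6 oligodendrocyte progenitor markers 3 rose and 0 fell in the same comparison, with array means of 9.43 to 9.82 in HBEGF P1 cultures against 8.26 to 8.46 in fresh P1 cells, and their part in the S100 changes was not tested.

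In P7 cells 4 of 9 members rose and 0 fell, while 10.3% of all genes were called, 4.78% higher and 5.51% lower. S100a6 was 25.2-fold higher in HBEGF P7 cultures than in fresh P7 cells, a log2 change of 4.66 ± 0.26 (SE, adjusted p = 1.9e-09), with 2 of 14217 genes above it. S100a11 rose by 3.42 ± 0.46 (SE, adjusted p = 4.25e-05) and S100a10 by 1.99 ± 0.30 (SE, adjusted p = 0.000126). S100a1 rose by 1.17 ± 0.32 (SE, adjusted p = 0.0128), a call lost without fresh P7 replicate 2 (adjusted p = 0.0618), without HBEGF P7 replicate 1 (0.81, adjusted p = 0.0808) and in the fit of the 2 groups alone (adjusted p = 0.121). S100b was 0.86, adjusted p = 0.00422, under the fold limit. S100a4, at 1.12, adjusted p = 0.177, was called without fresh P7 replicate 1 (1.73, adjusted p = 0.0351) or HBEGF P7 replicate 2 (1.71, adjusted p = 0.0335). Of 14 fibroblast and meningeal markers 3 rose and 0 fell in the same comparison. HBEGF P7 replicate 2 had a marker mean of 8.72, just under the fresh P7 range of 8.74 to 9.58, and an S100a6 value of 11.91. That S100a6 value was the lowest of its group, as were the S100a11 (10.82), S100a10 (12.67) and S100a4 (9.67) values of the same array. The part of these markers in the S100 changes was not tested.

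The culture response of S100a6 differed with age. After the same 7 days in HBEGF medium S100a6 was 12.6-fold higher in cultures from P7 than from P1 rats, a log2 change of 3.66 ± 0.26 (SE, adjusted p = 3.1e-06), the only one of 9 members called. There 1.11% of all genes were called, 0.753% higher and 0.359% lower, and 1 gene rose more than S100a6. The difference of the culture changes, P7 minus P1, was 3.30 ± 0.37 (SE, adjusted p = 0.00018) for S100a6, the 1 member called, while 0.816% of all genes were called, 0.162% higher and 0.654% lower. For S100a11 it was 1.55, adjusted p = 0.348, for S100a10 0.91, adjusted p = 0.419, for S100a4 −0.48, adjusted p = 0.891 and for S100b −0.21, adjusted p = 0.852. Without HBEGF P7 replicate 2, S100a11 was called both between the HBEGF cultures (2.19, adjusted p = 0.00352) and in the difference of changes (2.27, adjusted p = 0.0313). S100a10 was called between the HBEGF cultures without HBEGF P1 replicate 1 (1.23, adjusted p = 0.0394). In a fit of the 2 HBEGF groups alone S100a6 was not called (3.66, adjusted p = 0.118). Between the HBEGF cultures 2 of 14 fibroblast and meningeal markers rose and 0 fell. Of 6 oligodendrocyte progenitor markers 0 rose and 1 fell. In the difference of changes 0 of the 14 were called, and 1 of the 6 was lower. Fibroblast and meningeal array means ran from 8.72 to 11.02 in HBEGF P7 and 9.14 to 9.41 in HBEGF P1 cultures. The part of these markers in the S100a6 differences was not tested.

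**Figure D2:**
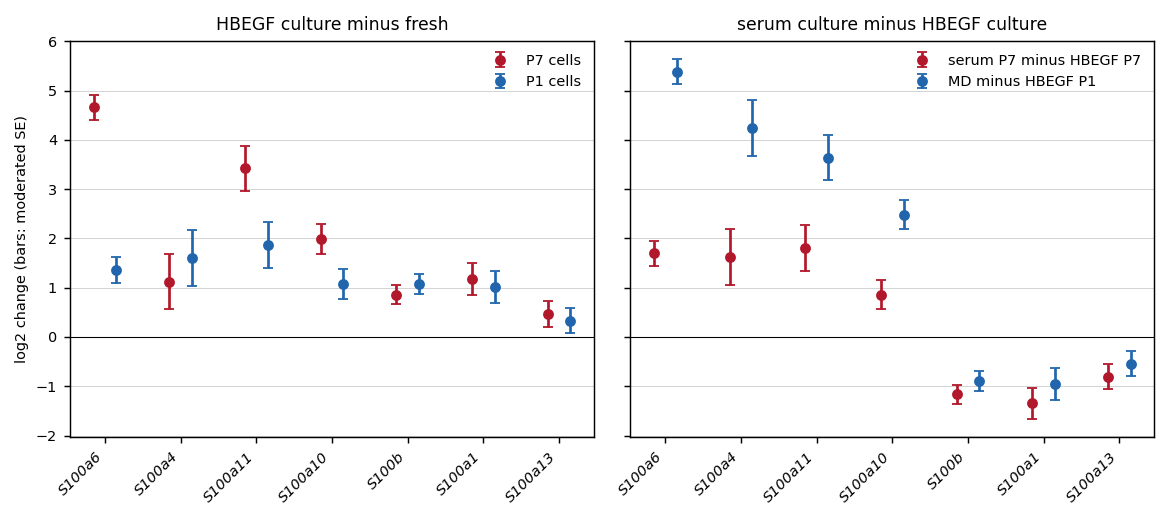
Log2 change with moderated SE (vertical axis) of 7 S100 genes (horizontal axis), in the left panel for HBEGF culture minus fresh cells in P7 (red) and P1 cells (blue), in the right panel for serum P7 minus HBEGF P7 (red) and MD minus HBEGF P1 (blue). S100a6 differs by 3.30 between the ages on the left and by −3.69 between the preparations on the right, while S100b differs by −0.21 and −0.27. The preparations on the right also differ in donor age.

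MD cultures had the largest rises of the S100a6 set and no called change of S100b or S100a1. Against fresh P1 cells 4 of 9 members rose and 0 fell, while 19.6% of all genes were called, 10.1% higher and 9.43% lower. S100a6 was 107-fold higher in MD cultures, a log2 change of 6.74 ± 0.26 (SE, adjusted p = 8.9e-12) and the largest rise of all 14217 genes. S100a4 rose by 5.84 ± 0.56 (SE, adjusted p = 4.16e-07), S100a11 by 5.51 ± 0.46 (SE, adjusted p = 8.71e-08) and S100a10 by 3.56 ± 0.30 (SE, adjusted p = 9.19e-08). S100b (0.18, adjusted p = 0.516) and S100a1 (0.05, adjusted p = 0.92) were not called. Against HBEGF P1 cultures the same 4 genes rose, while 18.4% of all genes were called, 8.81% higher and 9.57% lower. S100a6 rose by 5.39 ± 0.26 (SE, adjusted p = 4.89e-10), S100a4 by 4.24 ± 0.56 (SE, adjusted p = 1.64e-05), S100a11 by 3.64 ± 0.46 (SE, adjusted p = 1.07e-05) and S100a10 by 2.48 ± 0.30 (SE, adjusted p = 6.45e-06). S100b was −0.89, adjusted p = 0.00179 and S100a1 −0.96, adjusted p = 0.0265, both under the fold limit, and S100a1 was called without MD replicate 1 (−1.16) or HBEGF P1 replicate 2 (−1.13). The fibroblast and meningeal marker mean was lower in MD cultures (7.55 to 7.86) than in HBEGF P1 cultures (9.14 to 9.41), and 2 of its 14 markers rose and 8 fell. The markers that rose were Thy1, a surface protein also of neurons (4.14, adjusted p = 4.89e-10), and the collagen gene Col1a2 (1.59, adjusted p = 0.00367), and the changes of the list ran from −5.49 to 4.14 with a median of −1.84. Their part in the S100 changes was not tested. Panning, serum and HBEGF differed together between MD and HBEGF P1 cultures and cannot be told apart.

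**Figure D3:**
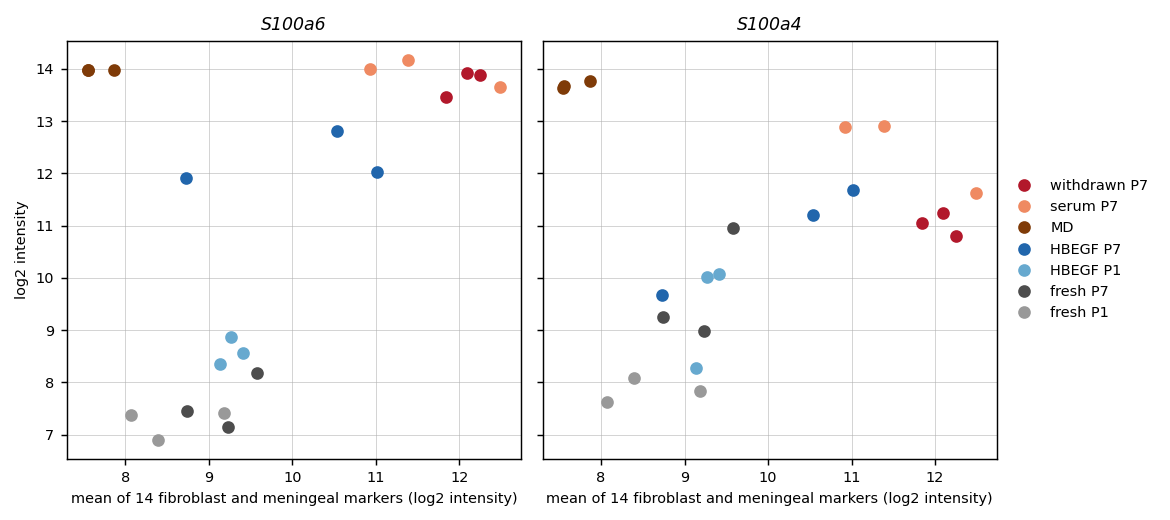
Log2 intensity of S100a6 (left) and S100a4 (right) against the mean log2 intensity of 14 fibroblast and meningeal markers, 1 point per array. The MD arrays have marker means of 7.55 to 7.86 and the highest S100a4 values, while the withdrawn P7 arrays have marker means of 11.84 to 12.25.

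Panned P7 cells in serum had all 4 genes of the S100a6 set higher than fresh cells, and S100b and S100a1 lower than cells in HBEGF. Against fresh P7 cells 4 of 9 members rose in serum P7 cultures and 0 fell, while 18.2% of all genes were called, 9.12% higher and 9.04% lower. S100a6 was 81.8-fold higher, a log2 change of 6.35 ± 0.26 (SE, adjusted p = 2.36e-11), S100a11 changed by 5.22 ± 0.46 (SE, adjusted p = 1.86e-07), S100a10 by 2.85 ± 0.30 (SE, adjusted p = 1.36e-06) and S100a4 by 2.74 ± 0.56 (SE, adjusted p = 0.000975). These 4 calls held without any 1 array of the groups compared. Of the fibroblast and meningeal markers 10 of 14 rose in the same comparison, and their part in it was not tested.

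Serum P7 against HBEGF P7 cultures moved genes of the S100a6 and S100b sets in opposite directions. Of 9 members 3 rose and 2 fell, while 9.3% of all genes were called, 4.83% higher and 4.47% lower. S100a6 rose by 1.70 ± 0.26 (SE, adjusted p = 0.000256), S100a11 by 1.80 ± 0.46 (SE, adjusted p = 0.0105) and S100a4 by 1.62 ± 0.56 (SE, adjusted p = 0.0491), while S100a10 was at 0.86, adjusted p = 0.0511. S100b was 2.24-fold lower in serum, a log2 change of −1.16 ± 0.20 (SE, adjusted p = 0.000567), S100a1 changed by −1.35 ± 0.32 (SE, adjusted p = 0.00634), and S100a13 was at −0.81, adjusted p = 0.0345, under the fold limit. S100a4 was lost without HBEGF P7 replicate 1 or 2 or serum P7 replicate 1 or 2 (adjusted p = 0.066 to 0.223) and with 16 added to each intensity (adjusted p = 0.0525). S100b went to −0.94 without serum P7 replicate 3 and S100a1 to −0.98 without HBEGF P7 replicate 1, both under the fold limit, while S100a13 was called without HBEGF P7 replicate 2 (−1.06, adjusted p = 0.0102). Without HBEGF P7 replicate 1 the count was 3 members, 2 up and 1 down. In a fit of the 2 groups alone S100a11, S100a4 and S100a1 were not called (adjusted p = 0.0931 to 0.146). Of the fibroblast and meningeal markers 7 of 14 rose here. The media of these cultures differed in both serum and HBEGF, whose parts cannot be told apart.

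The serum difference of S100a6, S100a4 and S100a10 was smaller in panned P7 cells than in the MD against HBEGF P1 comparison. This difference of differences was −3.69 ± 0.37 (SE, adjusted p = 1.72e-05) for S100a6, −2.62 ± 0.79 (SE, adjusted p = 0.0375) for S100a4 and −1.62 ± 0.43 (SE, adjusted p = 0.0171) for S100a10, 3 of 9 members, while 11.3% of all genes were called, 5.02% higher and 6.29% lower. S100a11 was at −1.84, adjusted p = 0.0764, S100b at −0.27, adjusted p = 0.624 and S100a1 at −0.39, adjusted p = 0.669. S100a6 averaged 13.94 ± 0.27 in serum P7 and 13.98 ± 0.01 in MD cultures (SD, n = 3 each), and 12.25 ± 0.49 in HBEGF P7 and 8.59 ± 0.26 in HBEGF P1 cultures. The S100a4 call was lost without any 1 MD array, without HBEGF P1 replicate 2, HBEGF P7 replicate 1 or 3, or serum P7 replicate 3 (adjusted p = 0.0577 to 0.104), and S100a11 was called without HBEGF P7 replicate 2 (−2.55, adjusted p = 0.00252). With the 4 groups alone S100a4 and S100a10 were not called (adjusted p = 0.079 and 0.0747). Donor age and preparation cannot be told apart in this comparison, and neither can serum and the lack of HBEGF.

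After withdrawal of serum S100b and S100a1 were higher, while S100a6, S100a11 and S100a10 differed by less than their errors. Besides the loss of serum, withdrawn cultures had HBEGF medium and 7 more days in culture, and these differences cannot be told apart. Withdrawn P7 against serum P7 cultures had 2 of 9 members higher and 0 lower, while 4.5% of all genes were called, 2.24% higher and 2.26% lower. S100a1 rose by 1.64 ± 0.32 (SE, adjusted p = 0.00509) and S100b by 1.18 ± 0.20 (SE, adjusted p = 0.00183). Without serum P7 replicate 3 S100b went to 0.96, under the fold limit, and 1 member was called. S100a6 (−0.19, adjusted p = 0.793), S100a11 (−0.21, adjusted p = 0.881) and S100a10 (−0.19, adjusted p = 0.826) were not called, with SE of 0.26, 0.46 and 0.30. S100a4 had the largest uncalled difference, −1.44, adjusted p = 0.142, and its withdrawn arrays lay below all serum arrays. Microglia and macrophage markers averaged 7.25 to 8.51 in withdrawn and 5.91 to 6.17 in serum cultures, with 6 of 12 higher, and their part in the S100 changes was not tested.

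Compared with P7 cells that never saw serum, withdrawn cultures had more S100a6 and S100a11. Against HBEGF P7 cultures 2 of 9 members rose and 0 fell, while 11.7% of all genes were called, 6.29% higher and 5.42% lower. S100a6 was 2.84-fold higher in withdrawn cultures, a log2 change of 1.51 ± 0.26 (SE, adjusted p = 0.000661), and S100a11 changed by 1.59 ± 0.46 (SE, adjusted p = 0.0194). S100b (0.02, adjusted p = 0.962, SE 0.20) and S100a1 (0.29, adjusted p = 0.538, SE 0.32) were not called. The S100a11 call was lost without HBEGF P7 replicate 2 (0.88, adjusted p = 0.0956), without withdrawn P7 replicate 3 (1.502, adjusted p = 0.062) and in a fit of the 2 groups alone (adjusted p = 0.126), and each of these left 1 member called. Withdrawn cultures were also 7 days older, so that serum history and time in culture cannot be told apart. Of the fibroblast and meningeal markers 9 of 14 rose, of the microglia and macrophage markers 6 of 12 and of the endothelial markers 3 of 9, with none lower in these lists. Microglia and macrophage means ran from 7.25 to 8.51 in withdrawn P7 and 5.63 to 7.58 in HBEGF P7 cultures, and endothelial means from 6.42 to 6.86 and 5.74 to 5.92 in the same groups. The part of these markers in the S100 changes was not tested.

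**Figure D4:**
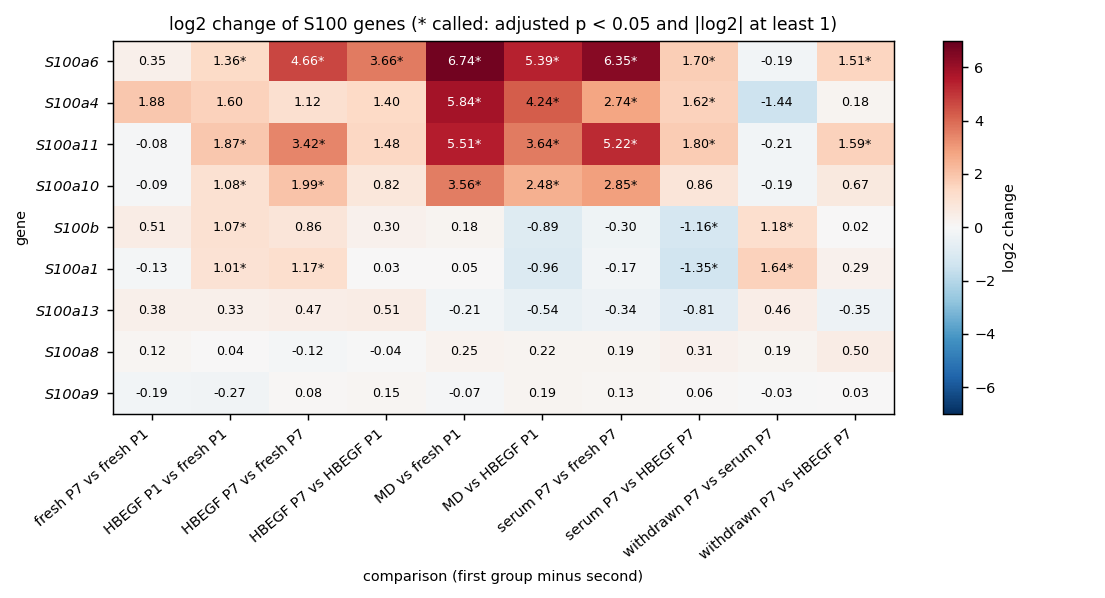
Log2 change of the 9 S100 genes (rows) in 10 comparisons (columns, first group minus second), with the value in each cell and an asterisk where it was called. S100a6 runs from −0.19 to 6.74, and S100b and S100a1 are below 0 in serum against HBEGF P7 cultures and above 0 in withdrawn against serum cultures.

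Of 16 listed partners and receptors of S100 proteins 15 were measured. In MD against fresh P1 cells 4 rose and 1 fell, with a median change of 0.33 beside 0.11 over all genes, of which 19.6% were called. In serum P7 against fresh P7 cells 7 rose and 1 fell, with a median of 0.30 beside 0.07 and 18.2% of all genes called. HBEGF culture raised 5 and lowered 1 in P7 cells, with 10.3% of all genes called, and raised 3 and lowered 0 in P1 cells, with 8.87% called.

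Anxa2 and Anxa1 had the largest rises of the list in serum P7 and MD cultures against fresh cells of the same age. Anxa2, the partner of S100A10, averaged 14.15 ± 0.08 in withdrawn P7, 14.22 ± 0.03 in serum P7, 14.37 ± 0.04 in MD, 12.83 ± 0.93 in HBEGF P7 and 11.59 ± 0.81 in HBEGF P1 cultures, against 9.14 ± 0.39 in fresh P7 and 9.43 ± 0.66 in fresh P1 cells (SD, n = 3 each). Its order of groups was that of S100a6 among the cultures. It rose by 5.07 ± 0.42 (SE, adjusted p = 7.69e-08) in serum P7 and by 4.93 ± 0.42 (SE, adjusted p = 9.04e-08) in MD cultures, each against fresh cells of the same age. Anxa1, the partner of S100A11, rose by 4.91 ± 0.41 (SE, adjusted p = 7e-08) in MD against fresh P1 cells. Anxa11, a partner of S100A6, rose by 2.12 ± 0.24 (SE, adjusted p = 2.48e-06) there, and Myh9, the non-muscle myosin bound by S100A4, by 3.05 ± 0.21 (SE, adjusted p = 1.04e-08).

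Fgf1, the growth factor that S100A13 helps to release, had its largest rise in withdrawn P7 against HBEGF P7 cultures, 3.14 ± 0.49 (SE, adjusted p = 0.000286). Tlr4, a receptor for S100A8 and S100A9, rose by 2.28 ± 0.31 (SE, adjusted p = 1.99e-05) in serum P7 against fresh P7 cells. Its group means stayed between 4.29 in fresh P1 cells and 7.06 in withdrawn P7 cultures. Ager, which encodes RAGE, was called in none of the 12 comparisons and had group means of 6.89 to 7.50. The partners that fell were named after their values were seen. Plat, whose protein tPA is known to bind S100A10 at the cell surface, fell in MD against fresh P1 cells (−1.63, adjusted p = 0.000532). Il1a, the cytokine released with S100A13, fell in serum P7 against fresh P7 cells (−1.61, adjusted p = 0.000127) and in HBEGF P7 against fresh P7 cells (−1.60, adjusted p = 0.000264). Its means in these cultures, 5.25 and 5.26, lay under 5.36, the 25th percentile of probe set means. Of 12 microglia and macrophage markers 4 fell and 1 rose in the serum comparison, and 2 fell and 0 rose in the HBEGF comparison. The part of these markers in the Il1a changes was not tested.

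**Figure D5:**
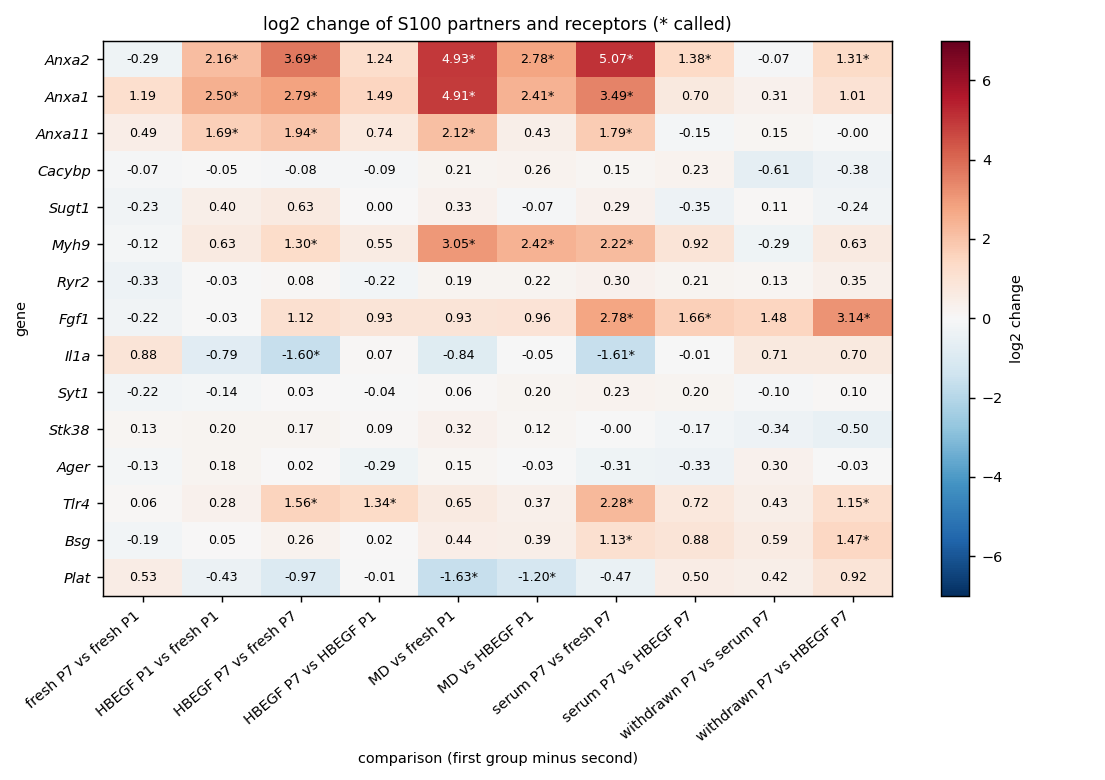
Log2 change of 15 partners and receptors of S100 proteins (rows) in 10 comparisons (columns, first group minus second), with an asterisk where called. Anxa2 and Anxa1 reach 5.07 and 4.91, and Ager, Ryr2, Stk38, Sugt1, Cacybp and Syt1 have no asterisk.

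Among 10 further names of the family list 7 were measured. S100a16, like S100b and S100a1, was lower in serum P7 than in HBEGF P7 cultures. It averaged 12.29 ± 0.37 in serum P7 and 13.63 ± 0.15 in HBEGF P7 cultures (SD, n = 3 each), a fall of 1.35 (adjusted p = 0.00017). In MD against HBEGF P1 cultures S100a16 changed by −1.06 ± 0.20 (SE, adjusted p = 0.000437). S100a3, which lies beside S100a4, rose in MD cultures against fresh P1 cells (2.31, adjusted p = 0.00331) and against HBEGF P1 cultures (1.57, adjusted p = 0.0357). S100a14 was called lower in serum P7 against fresh P7 cells (−1.06, adjusted p = 0.00316), where its serum P7 mean was 5.47, near the 25th percentile of 5.36. S100pbp, which encodes an S100P-binding protein and is no S100 gene, rose in 3 comparisons. Both were read by their lead probe set, and each had a further probe set of lower mean (5.88 and 9.66) whose changes are not given here. S100a5, S100g and S100vp were called in none.

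The genes most like S100a6, by Pearson correlation of log2 intensity over the 21 arrays, which share their groups, were Slco3a1 (0.98), Mgst2 (0.98), Srd5a3 (0.97), Emp3 (0.97) and Tpm2 (0.97). Tpm2 encodes a tropomyosin of actin filaments, and Slco3a1 an organic anion transporter. The genes most like S100b were Macrod1 (0.93), C20h22orf15 (0.90), Smim19 (0.89), Slc4a3 (0.89) and Zfp972 (0.87).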

How the data were processed

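RNA of 21 samples, 7 groups of 3 biological replicates, was hybridised to Affymetrix Rat 230 2.0 arrays, with RNeasy extraction and 3' IVT Express labelling per the labels' protocols. The deposited table held linear intensity values of 31042 probe sets, for which the submitters' processing notes name RMA; the software version is not given in the sources used here. Array medians ran from 128 to 146, and intensities from 10.0 to 37801. The number of arrays limits the precision.

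Intensities were taken to log2 with no further normalization. Symbols came from GEO's platform annotation: 20826 probe sets had 1 symbol, 436 several and 9780 none, and the last 2 kinds named no gene. Groups were fitted with limma 3.58.1 in R 4.3.3 (lmFit and eBayes, 14 residual and 2.89 prior degrees of freedom), with Benjamini-Hochberg adjustment over all probe sets and genes counted by lead probe set. The code was tested on simulated data. With 3 arrays against 3, an exact permutation test of a single value could not go below 0.1 and was not run. Within groups arrays correlated at 0.963 to 0.994 (Spearman).

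The members, the marker lists and the partner list were chosen with earlier results of these data known. Named genes were the 9 members, up to 6 partners with the largest called change, and the 5 genes of most like pattern for S100a6 and S100b; others named were picked after their values were seen. Promoters came from RefSeq (GRCr8), which held 6 of the 9 members.

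Replicate numbers were checked as pairs by correlating deviations from group means. All 3 same-numbered correlations exceeded 0.1 in 6 of 21 group pairs, among them HBEGF P1 with fresh P1, MD with fresh P1, HBEGF P7 with HBEGF P1, MD with HBEGF P1 and withdrawn P7 with serum P7; over all pairs the correlations ran from −0.18 to 0.59. For 18 of 21 arrays the best match in another group had the same number. The main fit had no term for replicate number and treated the arrays as independent. Alternatives were the replicate block, quantile normalization, removal of dim probe sets, 16 added to each intensity, a trended robust prior, only the groups compared, the mean of a gene's probe sets and the adjusted p alone. Each array was also left out, in the comparisons that hold its group.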

Additional observations from a re-analysis of the deposited data

Results flagged for a closer look

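S100a6 changed differently with HBEGF culture in cells of the 2 ages. The difference of the 2 changes, P7 minus P1, was 3.30 ± 0.37 on the log2 scale (SE, limma adjusted p = 0.00018). The serum difference also differed between preparations of different donor age, taken as serum P7 minus HBEGF P7 cultures less MD minus HBEGF P1 cultures. It was −3.69 ± 0.37 for S100a6 (SE, limma adjusted p = 1.72e-05), −2.62 ± 0.79 for S100a4 (SE, limma adjusted p = 0.0375) and −1.62 ± 0.43 for S100a10 (SE, limma adjusted p = 0.0171). The S100a6 values share the HBEGF P7 and HBEGF P1 arrays between both differences. In the serum difference, donor age and preparation cannot be told apart, and neither can serum and the lack of HBEGF. Its S100a4 call was lost for 7 of the 12 arrays left out in turn. In a limma fit of these groups alone S100a4 and S100a10 were not called (adjusted p = 0.079 and 0.0747).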

How the results depend on the processing

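Members had 840 values under the settings other than leaving out 1 array, and 823 kept their side of the threshold. Of 756 values without 1 array 719 did. No called value changed sign, while 3 and 36 values that were not called did. In the main fit 35 of 108 member values were calls, and 25 of these calls held without any 1 array of the groups compared. Fits of only the groups compared, which used fewer arrays, gave 9 of the 10 calls lost under the other settings. The mean of a gene's probe sets could change a member only through its adjusted p, since each member had 1 probe set. With the replicate number as a block, S100a4 was called in HBEGF P1 against fresh P1 cells (adjusted p = 0.0392, 6 members called in place of 5), and the block changed no other call of a member. Fitting only the groups compared left 0 members called between HBEGF P7 and HBEGF P1 cultures (limma, fewer samples in the fit), 2 in serum against HBEGF P7 cultures, 1 in withdrawn against HBEGF P7 cultures and 1 in serum by preparation. Without 1 array, members called ranged from 2 to 6 in HBEGF P1 against fresh P1, 3 to 5 in HBEGF P7 against fresh P7, 1 to 2 in HBEGF P7 against HBEGF P1, 4 to 5 in MD against HBEGF P1, 3 to 5 in serum against HBEGF P7, 1 to 2 in withdrawn against serum, 1 to 2 in withdrawn against HBEGF P7, 1 to 2 in culture by age and 2 to 4 in serum by preparation; they stayed at 4 in MD against fresh P1 and serum against fresh P7, and at 0 in fresh P7 against fresh P1. Over all genes, dropping the fold limit gave 619 calls in place of 221 in fresh P7 against fresh P1, 3418 for 1261 in HBEGF P1 against fresh P1, 4060 for 1463 in HBEGF P7 against fresh P7, 249 for 158 in HBEGF P7 against HBEGF P1, 6154 for 2782 in MD against fresh P1, 6007 for 2613 in MD against HBEGF P1, 5915 for 2581 in serum against fresh P7, 3592 for 1322 in serum against HBEGF P7, 1417 for 640 in withdrawn against serum, 4244 for 1664 in withdrawn against HBEGF P7 and 2606 for 1607 in serum by preparation. Fitting only the groups compared gave 0 between the HBEGF cultures, 762 in serum against HBEGF P7, 895 in withdrawn against HBEGF P7 and 58 in place of 116 in culture by age. Without 1 array these counts ranged from 136 to 213 in fresh P7 against fresh P1, 75 to 291 between the HBEGF cultures, 337 to 954 in withdrawn against serum and 50 to 343 in culture by age. S100a8 and S100a9 lay under the 25th percentile of probe set means, where signal limits what could be seen.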
